A study of Mus musculus with 24 samples.

Results

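Cytosolic aminoacyl-tRNA synthetases and eukaryotic translation initiation factors were followed at the RNA level in mouse embryonic fibroblasts (MEF) that had been starved of serum and then refed. The genes were chosen by name, as a list of 39: 20 synthetases, 17 initiation factors and the 2 inhibitors of the cap-binding protein (4E-BPs). Of these, 35 had a probe set of their own on the array (18 synthetases, 15 initiation factors and both 4E-BPs), and all 35 passed the minimum intensity of 20 in at least 2 arrays, out of 9908 genes that passed it in the whole series. Aars was read only by a probe set shared with Exosc6, and Dars, Eif2s1 and Eif4g1 were not matched to a probe set here, so these 4 genes were not analysed. The study used the MEF course beside human fibroblasts to ask which genes follow the cell cycle, and the present question was what the machinery that charges tRNAs and starts translation did as resting cells re-entered growth. The 24 arrays fall into 17 times after refeeding with 10% serum (0.5, 1, 2 h and then each even hour to 30 h), the starved cells at 0 h, which had spent 48 h in low serum (0.5% by the protocol, 0.1% by the design text), and unsynchronised cells kept in full serum. The 5 groups at 0, 12, 18 and 24 h and of unsynchronised cells held 2 arrays each, and the other 14 times held 1 array each. All cells were early passage MEF. The sources used here gave neither their strain nor their sex. They label the 2 arrays of each duplicated group as biological replicas 1 and 2, without describing whether these came from separate cultures. The p-values therefore measure the spread between arrays, and how far this spread is technical is not known.

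An aminoacyl-tRNA synthetase joins its amino acid to the matching tRNAs and so supplies the ribosome with charged tRNA. Initiation begins when eIF2 brings the initiator tRNA to the small ribosomal subunit, where eIF3, eIF1A and eIF5 also sit. The cap-binding complex eIF4F (the cap-binding protein eIF4E, the helicase eIF4A1 and the scaffold eIF4G) then loads this complex on a capped mRNA, and eIF5B helps to join the large subunit. eIF2B recharges eIF2 with GTP, and the 4E-BPs hold eIF4E away from the scaffold until they are phosphorylated. Serum stimulation of resting fibroblasts is a classical setting in which protein synthesis and cell size increase before DNA is replicated. All of these steps are strongly controlled after transcription, and the arrays measure RNA only.

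Values below are RMA intensities on the linear scale as deposited, and changes are differences of mean log2 intensity between groups (log2 change) with the standard error (SE) of a limma fit over all 24 arrays. A gene passed the test when its p-value, adjusted by Benjamini-Hochberg over all 9908 genes, was below 0.05. The arrays were normalized to each other, so a change in the total RNA of a cell is not seen, and in bulk RNA fewer cells that express a gene cannot be told apart from less of its RNA in each cell. Over all probe sets, the log2 intensities of duplicates correlated between 0.985 (0 h) and 0.991, and the SD between duplicates over the members was 0.228 at 0 h, beyond the 0.0811 to 0.147 of the remaining groups. The 2 arrays at 0 h were thus the least alike, and every comparison with 0 h rests on them. All 10 fibroblast markers were bright throughout, while epithelial markers (0 of 4 genes above the minimum) were near background. Genes of macrophages and leukocytes were also read, with 10 of 11 above the minimum in at least 2 arrays. Ptprc reached 20 in 2 of the 24 arrays, Tyrobp in 17 and Aif1 in 0, and the highest medians were those of Lyz2 (793), Cd68 (210) and Fcer1g (189). The summed intensities were 1498 to 1863 at 2 to 8 h, 1639 to 2216 at 0 h and 1002 to 1056 in unsynchronised cells. Neural markers (3 of 4 above it) summed to 105 to 255 at 2 to 8 h, 133 to 138 at 0 h and 225 to 306 in unsynchronised cells. Muscle markers (2 of 4) summed to 110.3 to 178 at 2 to 8 h, 87.3 to 96.7 at 0 h and 203 to 351 in unsynchronised cells. The defining genes Sox10, Myod1 and Myog were under 20 in all 24 arrays. Endothelial markers (2 of 5) summed to 61.5 to 104 at 2 to 8 h, 57.1 to 57.9 at 0 h and 37.4 to 43.4 in unsynchronised cells. The part of these genes in the changes below was not tested.

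Between 2 and 8 h after refeeding, the growth window before DNA replication, 8 of 15 initiation factors and 2 of 18 synthetases had risen. Of the 35 genes, 10 were higher than at 0 h and 1 was lower, where 16.3% of all genes tested were higher and 21.2% lower. The gene that was lower was an initiation factor, no synthetase was lower (none at an unadjusted p under 0.05 either), and neither 4E-BP passed the test. The median log2 change was 0.33 for the initiation factors, 0.14 for the synthetases and -0.05 for all genes tested. Whether the groups of genes differed from each other was not tested. The count of 10 fell to 5 without the first 0 h array and to 6 without the 6 h array.

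**Figure D1:**
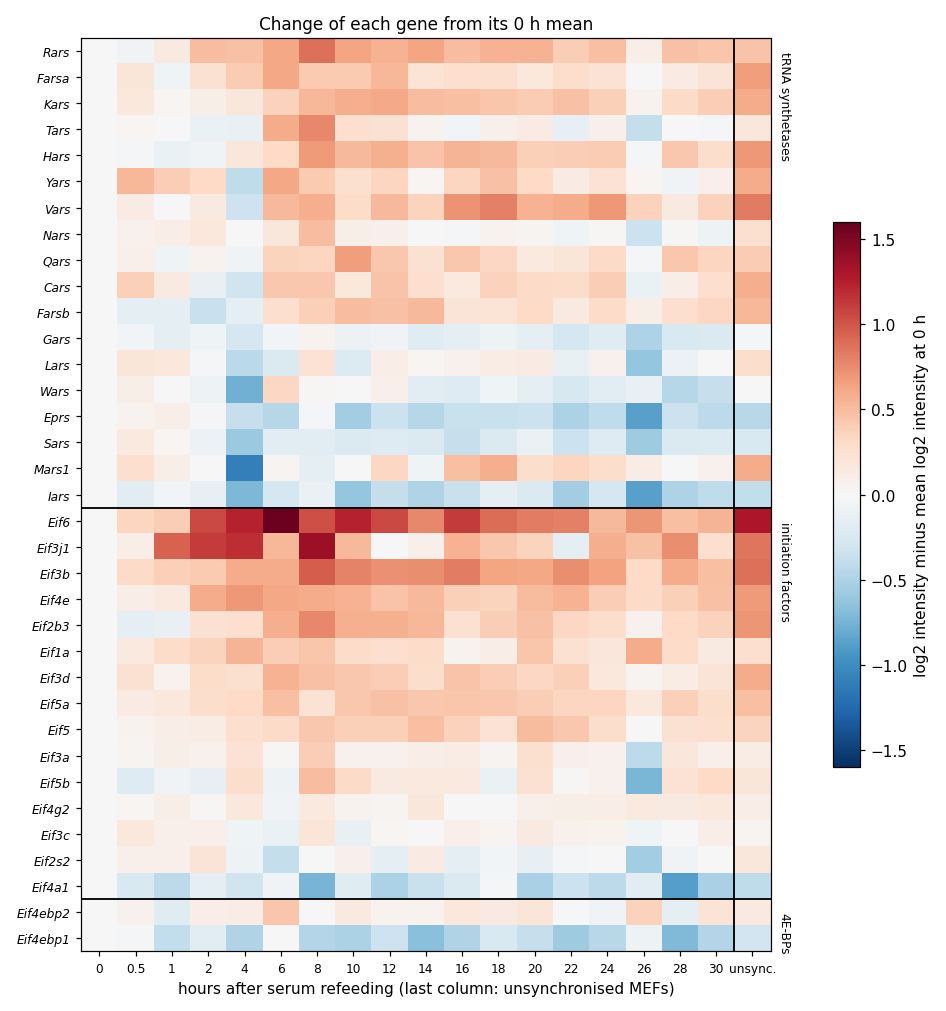
Mean log2 intensity of each of the 35 genes at each time, and in unsynchronised cells (last column), minus its mean at 0 h. Red is above and blue below the 0 h mean, rows are ordered within each class by the change at 2 to 8 h, and most initiation factors are red by 2 to 8 h, while many synthetases turn red from 6 h.

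The largest rise was that of Eif6, whose product keeps the large ribosomal subunit from joining too early and acts in the making of that subunit. Eif6 read 380.3, 428, 539 and 374 at 2, 4, 6 and 8 h, against 155 and 215 at 0 h. Each of the 4 refed arrays was above both starved arrays, and the log2 change was 1.22 ± 0.18, a 2.33-fold rise (adjusted p = 0.000553). Eif6 stood at 231 and 239.9 at 0.5 and 1 h, was highest at 6 h, and read 210.1 and 327 in the 24 h arrays, and 19 of the 20 arrays after 0 h lay above both 0 h arrays.

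Subunits of eIF3, the large scaffold complex on the small ribosomal subunit, did not move as one. Eif3b read 589, 663, 665 and 861 at 2 to 8 h and 364 and 533 at 0 h, a log2 change of 0.64 ± 0.15 (adjusted p = 0.00775), although without the first 0 h array this was 0.37 and did not pass (adjusted p = 0.070). All 20 arrays after 0 h were above both 0 h arrays. Eif3d, which was also higher, changed by 0.39 ± 0.12 (adjusted p = 0.0249; 0.11 without the first 0 h array and 0.058 without the 6 h array). Eif3j1, a loosely bound subunit, read 31.0, 32.4, 20.6 and 36.7 at 2 to 8 h and 16.3 and 12.4 at 0 h, a log2 change of 1.05 ± 0.21 (adjusted p = 0.00305). These intensities lie around the minimum of 20, which 11 of the 24 arrays reached, and a near copy, Eif3j2, could share its signal. Eif3c hardly differed, with 1194, 1078, 1045 and 1296 at 2 to 8 h and 1066 and 1197 at 0 h (log2 change 0.03 ± 0.12, adjusted p = 0.885). Eif3a did not pass either (0.18 ± 0.11, adjusted p = 0.245).

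In the cap-binding complex the cap-binding protein itself rose. Eif4e read 653, 698, 664 and 653 at 2, 4, 6 and 8 h, against 435 and 431 at 0 h, so that the 2 starved arrays agreed closely and all refed arrays lay above them. The log2 change was 0.62 ± 0.10 (1.54-fold, adjusted p = 0.00108). The step came between 1 h, with 481, and 2 h. Eif4g2, a relative of the scaffold that lacks the site for the cap-binding protein, changed by 0.07 ± 0.11 (adjusted p = 0.624).

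Eif4a1, the helicase of the same complex, was the 1 gene that fell, but its 2 probe sets ran in opposite directions. The bright probe set, used for the test, read 3441, 3073, 3698 and 2297 at 2 to 8 h and 3837 and 3839 at 0 h, a log2 change of -0.32 ± 0.11 (adjusted p = 0.0486). The dimmer probe set read 141, 158, 144 and 200.1 at these times and 114 and 147 at 0 h, a log2 change of 0.30. With the mean of both probe sets the change was -0.01 (adjusted p = 0.95), so no direction is given for the gene. The call on the bright probe set was also lost without the 4 h array (adjusted p = 0.067), without the 8 h array (0.28) and without either 0 h array (0.11 and 0.096).

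Neither 4E-BP passed the test in any comparison. Eif4ebp1 read 636, 515, 717 and 518 at 2 to 8 h and 767 and 671 at 0 h, a log2 change of -0.28 ± 0.17 (adjusted p = 0.219). Of the 20 arrays after 0 h, 17 lay below both 0 h arrays and none above both. Eif4ebp2 read 159, 161, 200.2 and 147 at 2 to 8 h and 148 and 147 at 0 h (0.17 ± 0.15, adjusted p = 0.4). The 2 inhibitors thus lay on different sides of their starved level, by less than the test could separate from it. Before adjustment, 1 of the 14 tests of the 4E-BPs had a p under 0.05, Eif4ebp1 at 24 h.

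Among factors of the initiator tRNA, Eif2b3, a subunit of the exchange factor eIF2B, read 69.4, 70.2, 87.4 and 99.8 at 2 to 8 h and 71.4 and 47.9 at 0 h. The groups overlapped, since the first 0 h array was above the 2 h and 4 h arrays. Its log2 change of 0.47 ± 0.15 (adjusted p = 0.0339) did not pass without the second 0 h array (0.18, adjusted p = 0.30), the 6 h array (adjusted p = 0.061) or the 8 h array (0.10). Eif2s2, the beta subunit of eIF2, read 78.5, 64.3, 52.2 and 67.7 at 2 to 8 h and 61.9 and 74.4 at 0 h (-0.06 ± 0.13, adjusted p = 0.731).

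Eif1a, which helps the small subunit to scan the mRNA, read 431, 494, 443 and 461 at 2 to 8 h and 293 and 391 at 0 h, a log2 change of 0.43 ± 0.13 (adjusted p = 0.0254). It did not pass without the first 0 h array (0.23, adjusted p = 0.21) or the 4 h array (adjusted p = 0.052), and its close copy Eif1ax, on a probe set of its own, changed by 0.11 ± 0.14. Eif5a, named as an initiation factor but known for its work in elongation, rose by 0.33 ± 0.11 (adjusted p = 0.0398). It did not pass without the first 0 h (adjusted p = 0.22), the 4 h (0.054) or the 6 h array (0.091). Eif5 (0.28 ± 0.12, adjusted p = 0.0893), which makes eIF2 hydrolyse its GTP, and Eif5b (0.14 ± 0.13, adjusted p = 0.438) did not pass.

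Of the synthetases, Rars, the arginine enzyme, had the clearest change. It read 954, 941, 1042 and 1247 at 2, 4, 6 and 8 h, against 718 and 645 at 0 h, with no overlap, and its log2 change was 0.61 ± 0.11 (1.53-fold, adjusted p = 0.00186). Together with Eif6, Eif3j1 and Eif4e it was one of the 4 genes whose call at 2 to 8 h was kept under every alternative run except a minimum change of 2-fold, which only Eif6 and Eif3j1 passed. Farsa, the catalytic subunit of the phenylalanine enzyme, read 65.3, 73.0, 84.5 and 73.6 at 2 to 8 h and 49.1 and 61.5 at 0 h (0.43 ± 0.13, adjusted p = 0.029). It did not pass without the first 0 h array (adjusted p = 0.20) or the 6 h array (0.070). Its partner subunit Farsb did not rise in this window, with 99.3, 113, 152 and 166 at 2 to 8 h and 131 and 123 at 0 h (0.03 ± 0.11, adjusted p = 0.834), and its arrays at 2 and 4 h lay below both 0 h arrays and those at 6 and 8 h above them.

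Of the synthetases given next, Tars showed the same split inside the window, while Kars and Gars did not. Tars, the threonine enzyme, read 485 and 480.2 at 2 and 4 h and 789.7 and 885 at 6 and 8 h, against 521 and 522 at 0 h, and its change over the whole window did not pass (0.29 ± 0.11, adjusted p = 0.0643). Without the 4 h array it did (0.42, adjusted p = 0.019), as it did without the 2 h array (adjusted p = 0.016). Kars, the lysine enzyme, read 420.2, 447, 509 and 572 at 2 to 8 h and 346 and 451 at 0 h (0.29 ± 0.13, adjusted p = 0.11; 0.018 without the second 0 h array). Gars, the glycine enzyme, read 1008, 879, 1023 and 1098 at 2 to 8 h and 1027 and 1082 at 0 h (-0.08 ± 0.11, adjusted p = 0.604).

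The most negative changes among the synthetases were those of Iars and Mars1 (listed as Mars), the isoleucine and methionine enzymes, and neither passed. Iars read 729, 483, 654 and 738 at 2 to 8 h and 993 and 639 at 0 h (-0.31 ± 0.17, adjusted p = 0.168), and the gap between its starved arrays was wider than the range of the refed ones. Without the second 0 h array its change was -0.63 (adjusted p = 0.0065), so 1 library decided the call. Mars1 read 198, 92.3, 203 and 178 at 2 to 8 h and 177 and 221 at 0 h (-0.30 ± 0.14, adjusted p = 0.12), with the 4 h array far below the rest.

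**Figure D2:**
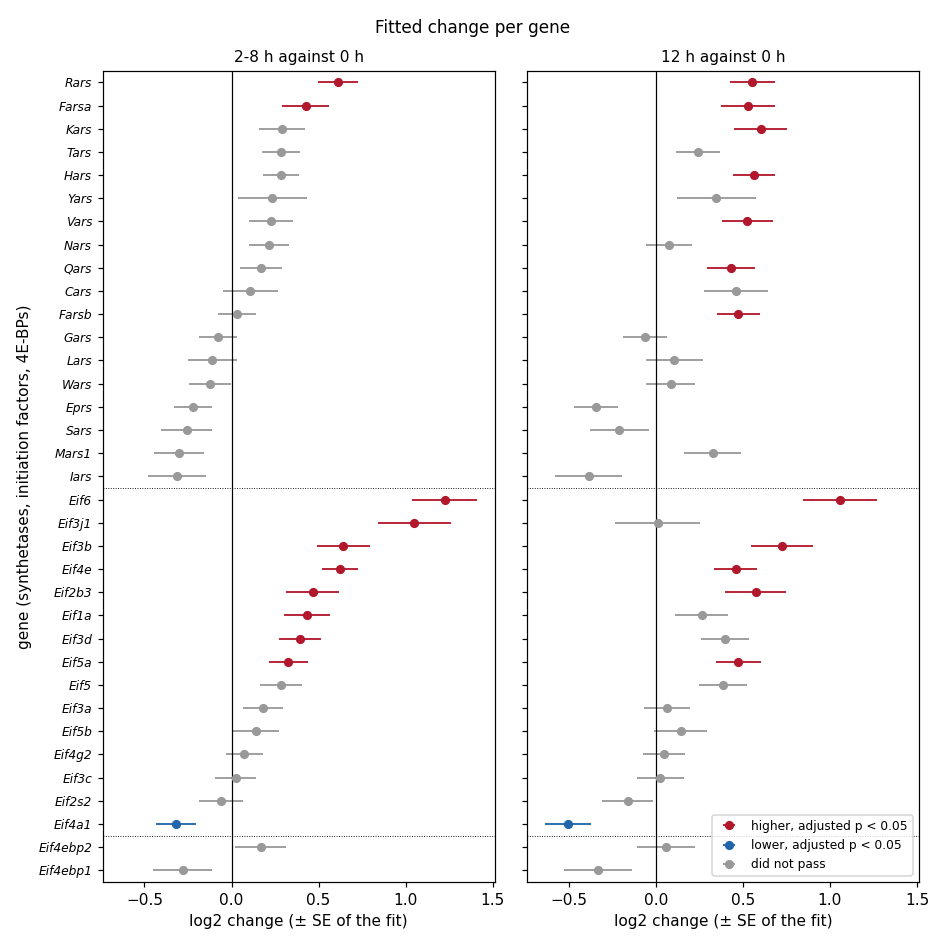
Log2 change of each gene at 2 to 8 h against 0 h (left) and at 12 h against 0 h (right), with bars for the SE of the fit. Coloured points passed the test: 8 initiation factors and 2 synthetases were higher at 2 to 8 h, 5 and 7 at 12 h, and the bright probe set of Eif4a1 was lower at both.

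At 12 h, where both groups held 2 arrays, synthetases made up the larger part of the genes that had risen. In all, 12 of 35 genes were higher than at 0 h and 1 (Eif4a1, bright probe set) was lower, beside 18.9% and 11.8% of all genes tested. The 12 were the 7 synthetases Kars, Hars, Rars, Farsa, Vars, Farsb and Qars, with log2 changes of 0.43 to 0.60, and the 5 initiation factors Eif6, Eif3b, Eif2b3, Eif5a and Eif4e, with 0.46 to 1.06. Hars, the histidine enzyme, read 502 and 525 at 12 h and 349 and 346 at 0 h (0.56 ± 0.12, adjusted p = 0.00519). Both subunits of the phenylalanine enzyme were now higher, Farsa with 76.2 and 82.6 at 12 h and 49.1 and 61.5 at 0 h, and Farsb with 167 and 186 at 12 h and 131 and 123 at 0 h (0.47 ± 0.12, adjusted p = 0.0157). Kars read 552 and 650.3 at 12 h and 346 and 451 at 0 h (0.60 ± 0.15, adjusted p = 0.0137). Eif6 remained high, with 357 and 403 at 12 h and 155 and 215 at 0 h (1.06 ± 0.21, adjusted p = 0.00412), and Eif3j1 had returned to 14.5 and 14.2, against 16.3 and 12.4 at 0 h. Only Hars and Eif6 passed under every alternative run other than the 2-fold minimum, which left Eif6 alone. The count of higher genes was 6 without the first 0 h array and 2 without the second 12 h array, where the single array left at 12 h is taken to vary like the other groups. The lower count was 2 without either 0 h array and 0 without the second 12 h array.

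At 18 h, 8 genes had risen above 0 h and 0 had fallen, beside 15.7% and 14.7% of all genes tested (limma, with 1 gene lower at an unadjusted p under 0.05). The 8 were Vars, Mars1, Rars and Hars among the synthetases and Eif6, Eif3b, Eif5a and Eif4e among the initiation factors. Vars, the valine enzyme, read 121 and 111 at 18 h and 64.5 and 67.7 at 0 h, a log2 change of 0.81 ± 0.15 (1.75-fold, adjusted p = 0.002). Mars1 read 303 and 289.8 at 18 h and 177 and 221 at 0 h (0.59 ± 0.16, adjusted p = 0.0205; 0.10 without the first 0 h array, 0.11 and 0.077 without either 18 h array). The count of 8 became 4 without the first 0 h array, 4 without the first 18 h array and 1, Vars, without the second 18 h array. The lower count became 2 without the first 0 h array and 1 without its duplicate.

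At 24 h the list had shortened to 5 higher genes, Vars, Rars, Hars, Eif3b and Eif4e, and 2 lower ones, Eprs and the bright probe set of Eif4a1, beside 14.5% and 12.0% of all genes tested. The share of higher members was thus at the background. Vars read 104 and 109 at 24 h and 64.5 and 67.7 at 0 h (0.69 ± 0.15, adjusted p = 0.00558), and it was the only gene whose call at 24 h held under every alternative run other than the 2-fold minimum, which no gene passed. Eprs, the enzyme for both glutamate and proline, read 697 and 663 at 24 h and 861 and 945 at 0 h (-0.41 ± 0.13, adjusted p = 0.0357), and 16 of the 20 arrays after 0 h lay below both 0 h arrays. This call was lost without the second 0 h array (adjusted p = 0.089) and without either 24 h array (0.097 and 0.14). The higher count was 3 without the first 0 h array, 9 without its duplicate and 2 without either 24 h array. The lower count was 1 without either 0 h array and 0 without either 24 h array.

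A direct comparison of late with early times showed 2 genes that rose late and 3 that had come down. At 18 and 24 h, 2 of 35 genes were higher than at 2 to 8 h and 3 lower, beside 20.4% and 16.0% of all genes tested, so both shares were below the background. Mars1 read 303, 289.8, 218 and 262 at 18 and 24 h (2 arrays each), against 198, 92.3, 203 and 178 at 2 to 8 h (0.73 ± 0.12, adjusted p = 0.000623). Vars read 121, 111, 104 and 109 at 18 and 24 h and 72.9, 52.4, 94.3 and 98.9 at 2 to 8 h (0.52 ± 0.10, adjusted p = 0.00248). For both genes all late arrays were above all early ones, and both passed without the 4 h array too. Eif6 fell by 0.51 ± 0.15 (adjusted p = 0.0215), with 326, 352, 210.1 and 327 at 18 and 24 h and 380.3, 428, 539 and 374 at 2 to 8 h, and it did not pass without the 6 h (adjusted p = 0.080), the first 18 h (0.071) or the first 24 h array (0.075). The falls of Eif3j1 (-0.55 ± 0.17, adjusted p = 0.0291) and Eif4e (-0.25 ± 0.09, adjusted p = 0.0434) were kept in 10 and 6 of 18 alternatives, the 2-fold minimum aside. The count of lower genes was 0 without the first 18 h or the first 24 h array and 1 without the second of either or without the 6 h array, and the count of higher genes 4 without the 8 h array.

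**Figure D3:**
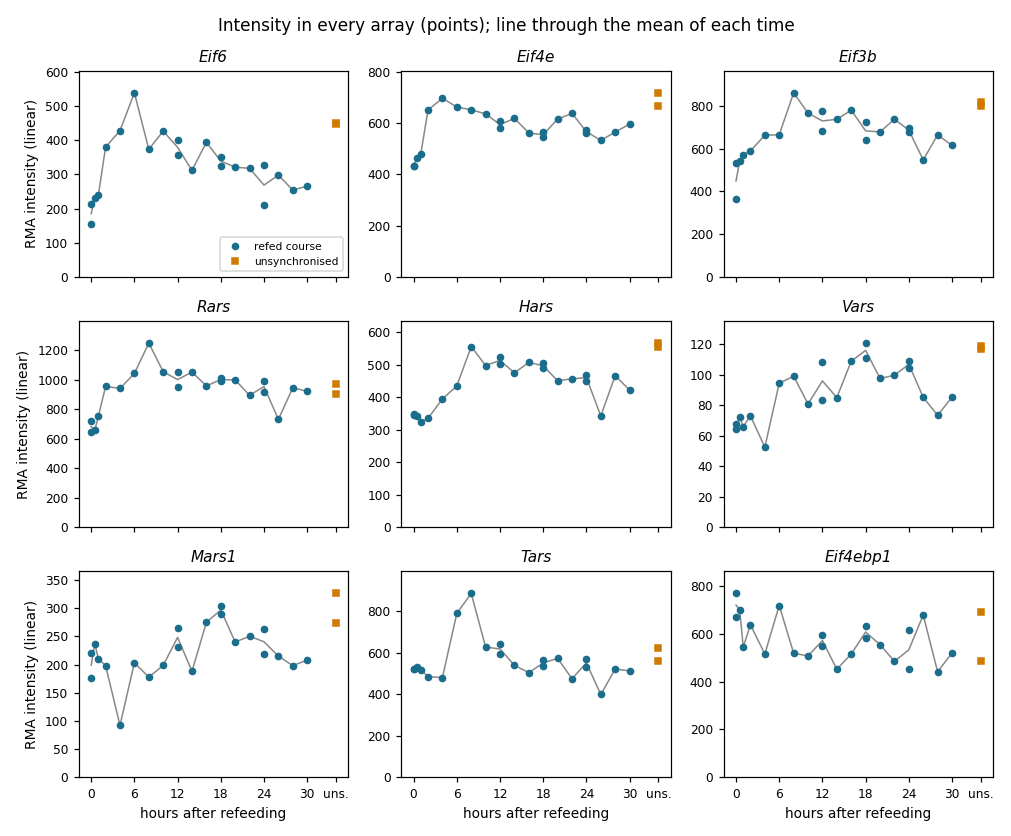
Linear RMA intensity of 9 genes in each array against hours after refeeding (circles), with a line through the mean of each time and unsynchronised cells at the right (squares). Eif6 peaks at 539 at 6 h, Eif4e steps up between 1 and 2 h, Tars peaks at 885 at 8 h, and Vars and Mars1 are highest at 18 h within the course.

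The time of the highest value was early for most of the genes: 21 of 35 were highest at 2 to 8 h, 11 of 15 initiation factors and 9 of 18 synthetases among them, and the median time was 8 h for both classes. In the 8 h array itself 6 synthetases and 6 initiation factors were highest. The lowest value was at 0 h for 6 initiation factors and 1 synthetase. These times rest mostly on single arrays, were not set beside those of all genes tested, and were not tested.

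In the 4 h array synthetases and initiation factors parted. At 4 h, 13 of 18 synthetases read below both the 2 h and the 6 h array and none above both, while of 15 initiation factors 2 were below and 6 above. Among all genes tested 39.0% were below both neighbours, and 2380 of 9908 were above both. Mars1 read 92.3 at 4 h, between 198 at 2 h and 203 at 6 h. Wars, the tryptophan enzyme, read 199 at 4 h, between 322 at 2 h and 429 at 6 h, and Yars, the tyrosine enzyme, 171, between 282 and 348. The median log2 change from 0 h was -0.29 for synthetases, 0.27 for initiation factors and -0.12 for all genes tested in this array. The 26 h array also read low, for 25 of 35 genes and 62.6% of all genes tested against both neighbours. These 2 arrays had the highest median intensities over all probe sets on the linear scale, 6.27 at 4 h and 6.41 at 26 h. The others had medians of 5.76 to 6.21, and the part of this difference in the low readings was not tested. With both left out, a choice made after the data were seen, 11 genes were higher and none was lower at 2 to 8 h. Of all 9908 genes tested, 1514 were then higher and 1624 lower, against 1611 and 2104 with these arrays. Tars (0.42, adjusted p = 0.019), Vars (0.41, adjusted p = 0.037) and Hars (0.32, adjusted p = 0.047) passed in addition. Eif1a (adjusted p = 0.052), Eif5a (0.054) and the bright probe set of Eif4a1 (0.067) no longer did.

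**Figure D4:**
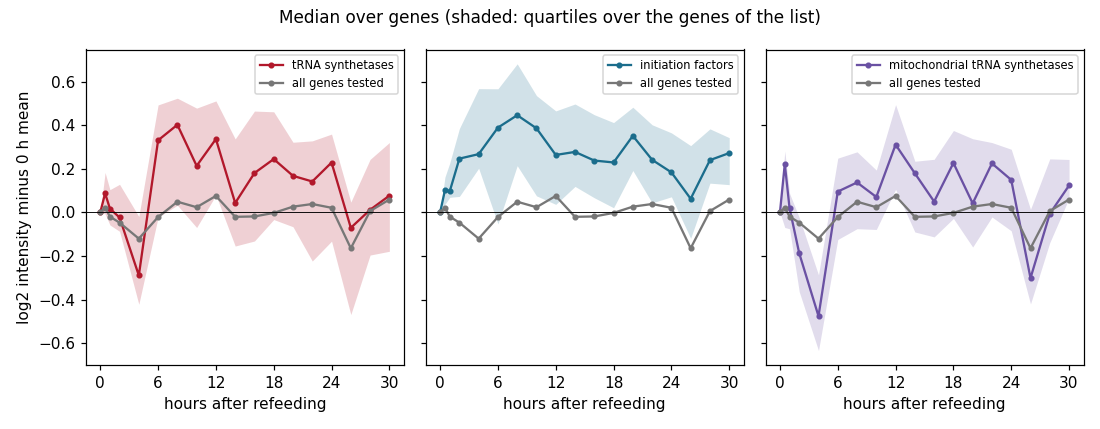
Median log2 change from 0 h over 18 synthetases, 15 initiation factors and 15 mitochondrial synthetases (coloured, with quartiles over genes shaded), each beside the median of all 9908 genes (grey), against hours after refeeding. Initiation factors lie above 0 from 0.5 h on, synthetases reach 0.40 at 8 h after a low 4 h array, and both low arrays, at 4 and 26 h, also lower the grey line.

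Starved cells differed from unsynchronised cells in 18 of the 35 genes, most of which were lower in the starved cells. At 0 h, 16 of 35 genes were lower than in unsynchronised cells (9 synthetases and 7 initiation factors) and 2 were higher, beside 21.7% and 21.0% of all genes tested. The median log2 change was -0.43 for synthetases, -0.36 for initiation factors and -0.01 for all genes tested. Eif6 read 155 and 215 at 0 h and 450.5 and 447 in unsynchronised cells, a log2 change of -1.30 ± 0.21 (2.46-fold lower, adjusted p = 0.000794). Vars read 64.5 and 67.7 at 0 h and 119 and 117 in unsynchronised cells (-0.84 ± 0.15, adjusted p = 0.00114). Hars read 349 and 346 at 0 h and 567 and 553 in unsynchronised cells (-0.69 ± 0.12, adjusted p = 0.00107). Eif4e read 435 and 431 at 0 h and 719 and 669 in unsynchronised cells (-0.68 ± 0.12, adjusted p = 0.00127). In each of these 4 genes both starved arrays were below both unsynchronised ones.

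The other genes lower at 0 h were Eif3b, Eif3j1, Eif2b3, Farsa, Kars, Mars1, Eif3d, Cars, Farsb, Eif5a, Rars and Qars, with log2 changes of -0.88 to -0.40. Farsa, Farsb, Eif2b3, Eif3b and Eif3d, with Eif6, Vars, Hars and Eif4e, kept their calls under every alternative run other than the 2-fold minimum, which only Eif6 passed. Cars was not among the genes followed singly through the alternatives. Eprs was higher at 0 h, with 861 and 945 at 0 h and 666 and 663 in unsynchronised cells (0.44 ± 0.13, adjusted p = 0.0171; 0.076 and 0.077 without either unsynchronised array and 0.053 without the second 0 h array). Eif4a1 was higher by its bright probe set (0.40 ± 0.13, adjusted p = 0.0303) and lower, without passing, by the mean of both (-0.12, adjusted p = 0.49). The count of 2 was 0 without either unsynchronised array and 1 without the second 0 h array. The 0 h arrays are shared with every comparison of refed cells above, so a starved reading that is off would move both. Macrophage and leukocyte genes had a summed intensity of 1639 to 2216 at 0 h and 1002 to 1056 in unsynchronised cells, and the fibroblast markers 19895 to 21974 at 0 h and 14347 to 14563 in unsynchronised cells. Neural and muscle markers ran the other way, as given above, lower at 0 h than in unsynchronised cells like most of the genes called. The brightest genes of these lists were Tubb3 and Acta1, with medians over all arrays of 145 and 98.3.

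In the first hour none of the 35 genes passed the test in limma, 1 had an unadjusted p under 0.05, and 1.01% and 0.0706% of all genes tested were higher and lower. The log2 changes of the mean of 0.5 and 1 h ran between -0.34 and 0.52, and 26 of 35 were positive. Without the second 0 h array, which leaves 1 starved array, the count of higher genes rose both among the members and among all genes tested. Eif4e and Rars read 466 and 481 and 656 and 753 at 0.5 and 1 h, against 435 and 431 and 718 and 645 at 0 h.

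Over the whole course, an F test of the 17 later times against 0 h called 10 of 35 genes, a smaller share than the 43.7% of all genes tested. They were the synthetases Vars, Mars1, Hars, Farsb, Tars, Eprs and Rars and, among the initiation factors, Eif6, Eif3j1 and Eif4a1 (bright probe set). The count ran from 3 to 19 when 1 array was left out: 3 without the second 12 h array or either 18 h array, 6 without the first 12 h array and 19 without the second 0 h array.

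Other genes of the translation machinery were read from lists. Of 25 further initiation factors tested (of 30 listed), 1 was higher and 2 lower at 2 to 8 h, beside 16.3% and 21.2% of all genes tested. Denr, a factor that reuses ribosomal subunits after termination, had a mean of 519 at 2 to 8 h and 243 at 0 h (1.06 ± 0.11, adjusted p = 6.26e-05), while its partner Mcts1, near the minimum, had 22.4 and 28.4 (-0.37 ± 0.11, adjusted p = 0.0225). Eif3h also fell (-0.37 ± 0.13, adjusted p = 0.0406), and Eif1b did not pass (-0.35 ± 0.14). The median log2 change of these 25 was 0.06. In the scaffold that holds several synthetases together, Eef1e1 rose (663 at 2 to 8 h and 356 at 0 h, 0.81 ± 0.13, adjusted p = 0.00063) and Aimp1 did not pass (-0.38 ± 0.17, adjusted p = 0.114).

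Synthetases of the mitochondrion, which are separate genes and most of them dim here, were also read, and whether they differed from the cytosolic ones was not tested. At 2 to 8 h 2 of 15 were higher (Mars2 0.56, Yars2 0.45) and 2 lower (Fars2 -0.59, Vars2 -0.46), beside 16.3% and 21.2% of all genes tested, with a median log2 change of -0.19. At 18 and 24 h against 2 to 8 h 6 of 15 were higher, beside 20.4% of all genes tested, with a median of 0.21. Lars2 had the largest such change, with a mean of 58.8 at 18 and 24 h and 37.9 at 2 to 8 h (0.70 ± 0.11, adjusted p = 0.000651). The 4 h array, where their median was -0.48 from 0 h and that of the cytosolic synthetases -0.29, enters this difference.

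At 2 to 8 h, 16.3% of all genes tested were higher and 21.2% lower, which is the background for the next lists. Among 9 elongation and termination factors 3 were higher and 0 lower. These were Etf1 (0.59 ± 0.12, adjusted p = 0.00376) and Gspt1 (0.46 ± 0.12, adjusted p = 0.0137), which together release the finished chain, and Eef1d (0.40 ± 0.13, adjusted p = 0.036), of the exchange factor for the elongation GTPase. Of 9 regulators that act at the cap or the poly(A) tail, Larp4 rose (0.59 ± 0.11, adjusted p = 0.00173) and Paip2, an inhibitor of the poly(A)-binding protein, fell (-0.42 ± 0.13, adjusted p = 0.0254). Cytosolic ribosomal proteins were listed without symbols that have a, x or l after the number, and 42 of 51 passed the minimum. Their median log2 change was -0.02, and 5 were higher, 11.9% beside 16.3% of all genes tested. The 5 included Rpl30, Rpl37, Rpl5 and Rps23, all with means under 50 in both groups, and probes of these genes can also read their many pseudogenes.

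The response to a shortage of amino acids or to stress, which runs through Atf4, was read from a list of 14 genes. At 2 to 8 h 5 of them fell, 1 rose and 8 did not pass, beside 21.2% lower and 16.3% higher among all genes tested. Those that fell were Trib3, with a mean of 37.9 at 2 to 8 h and 138 at 0 h (-1.97 ± 0.20, adjusted p = 4.16e-05), Sesn2 (-1.64 ± 0.12, adjusted p = 4.57e-06), Chac1, Ddit3 and Atf4 (-0.43 ± 0.12, adjusted p = 0.0195). Cebpb rose, with 268 at 2 to 8 h and 82.7 at 0 h (1.69 ± 0.19, adjusted p = 9.47e-05). Synthetase genes are known targets of Atf4 in mammals. Among the kinases that inactivate eIF2 and the phosphatase subunits that restore it, Eif2ak4, the sensor of uncharged tRNA, rose (65.8 at 2 to 8 h and 36.7 at 0 h, 0.83 ± 0.11, adjusted p = 0.000216), and Eif2ak2, the sensor of double-stranded RNA, fell (-0.80 ± 0.17, adjusted p = 0.00469). Ppp1r15a was higher in the first hour (1.11 ± 0.22, adjusted p = 0.0377) and lower at 2 to 8 h (-0.72 ± 0.19, adjusted p = 0.0119). Myc, a growth regulator that binds E-boxes, had a mean of 512 at 2 to 8 h and 284 at 0 h (0.82 ± 0.16, adjusted p = 0.00222), and its partner Max did not pass (0.26 ± 0.13, adjusted p = 0.139).

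Promoter windows from RefSeq (mouse build GRCm38.p6, 250 bases before to 50 after the start) were in hand for 27 of the 39 listed genes and were searched on both strands for the elements bound by these regulators. The letters of the C/EBP-ATF element, TGATGNAA, were in 5 of 27 genes, all of them synthetases (5 of 13 synthetases, 0 of 13 initiation factors), beside 4.51% of all genes with a window. Of these matches, 3 lie before the start of the gene, shown with the element in capitals on the strand of the gene, where it reads as its reverse complement.
Tars, chr15:11399659-11399693 (-): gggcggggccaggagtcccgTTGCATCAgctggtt
Gars, chr6:55037951-55037998 (+): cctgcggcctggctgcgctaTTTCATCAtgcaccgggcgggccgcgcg
Aars, chr8:111033710-111033757 (+): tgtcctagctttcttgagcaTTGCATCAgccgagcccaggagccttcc
Tars and Gars have the element 15 and 30 bases before their starts. Both were highest at 8 h, and neither passed the test at 2 to 8 h. Of the 20 arrays after 0 h, Tars lay above both 0 h arrays in 12 and below both in 7, and Gars in 1 and 18. Iars and Yars, with the element 8 and 4 bases after their starts, did not pass at 2 to 8 h either. Aars was not measured on its own. A match is a description of the letters, not of binding.

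The E-box CACGTG was in the windows of 9 of 27 genes, 4 of 13 synthetases and 5 of 13 initiation factors, beside 8.09% of all genes with a window. The stretches below show it in capitals in genes that rose at 2 to 8 or 12 h (Eif4e and Eif5a, with 2 copies each, and Farsb), in Iars, which did not pass at either, and in Eif4a1, for which no direction is given.
Eif4e, chr3:138527020-138527065 (+): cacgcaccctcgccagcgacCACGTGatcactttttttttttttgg
Eif4e, chr3:138527184-138527229 (+): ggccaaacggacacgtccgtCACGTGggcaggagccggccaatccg
Eif5a, chr11:69920783-69920828 (-): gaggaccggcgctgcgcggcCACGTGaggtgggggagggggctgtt
Eif5a, chr11:69921435-69921480 (-): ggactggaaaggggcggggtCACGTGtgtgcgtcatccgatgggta
Farsb, chr1:78488911-78488956 (-): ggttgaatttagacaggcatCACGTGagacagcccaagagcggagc
Iars, chr13:49682041-49682086 (+): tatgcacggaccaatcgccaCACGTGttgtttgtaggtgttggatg
Eif4a1, chr11:69672587-69672632 (-): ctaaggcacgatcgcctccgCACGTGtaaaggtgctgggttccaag
Eif3b and Farsa, which also rose at 2 to 8 h, had windows without these letters.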

How the data were processed

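RNA of MEF was hybridised to 24 Affymetrix Mouse Gene 2.0 ST arrays. The authors used ArrayQualityMetrics for quality control and RMA, from the oligo package, to normalize all arrays jointly, with versions not given in the sources used here. What they deposited is linear intensity, from 1.74 to 6335, although the header names log2, and both deposited tables hold equal values. Log2 was computed here. The platform annotation gave 1 gene for 23521 of 41345 probe sets, several for 1820, and did not list 16004, and only the first kind was used. A minimum of 20 in at least 2 arrays left 14182 probe sets, and the brightest for each gene gave 9908 genes. limma 3.58.1 in R 4.3.3 fitted 1 mean for each of 19 groups (5 residual and 5.58 prior degrees of freedom), with two-sided moderated tests and Benjamini-Hochberg adjustment. The fit was tested on simulated data. Of 66 changes of log2 0.5 it recovered 15 at 2 to 8 h, 10 at 24 h and 1 in the F test. Of 67 changes of log2 1 it recovered 55, 50 and 36, with 9, 5 and 1 false calls. A gene that did not pass may thus still have changed by such an amount.

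The members, the gene lists and the tests were chosen with earlier results of these data known. Genes were given array by array if they were among the 6 largest or 2 smallest changes of their class at 2 to 8 h, were lower there, or were 4E-BPs. Vars, Hars, Eprs, Wars and Yars were added after their values were seen. From each further list up to 4 genes by size of change at 2 to 8 h were named, and Atf4, Ddit3, Lars2 and Eif1ax were added after their values were seen. The alternatives were other minimums, scalings, a pseudocount, a variance trend, the mean of a gene's probe sets, a smaller fit, a 2-fold minimum, a replicate block and each array left out in turn. The number of arrays, with most times read once, limits the precision. Promoter windows were searched in Python.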

Additional observations from a re-analysis of the deposited data

How the results depend on the processing

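Of 2600 values of single genes recomputed under the alternatives other than the 2-fold minimum, 2395 kept their direction and their side of the threshold, 147 fell below it, 57 rose past it and 1 turned round: with the mean of a gene's probe sets, Eif4a1 at 0 h against unsynchronised cells was -0.12. Of 245 counts, 182 stayed within 1.5 times. With no minimum, 0 genes were lower at 2 to 8 h, 0 lower at 24 h and 1 higher at 0 h than in unsynchronised cells. The mean of a gene's probe sets gave 0 lower at 2 to 8 h, 0 lower at 12 h, 1 lower at 24 h and 1 higher at 0 h than in unsynchronised cells. Centring on the array median gave 1 lower at 24 h and moved the median of all genes at 12 h to 0.13, against 0.08 as deposited. A variance trend with robust moderation, and likewise a pseudocount of 16, gave 2 lower at 12 h and 1 lower at 18 h. A minimum of 2-fold left 2 higher and 0 lower at 2 to 8 h, 1 higher and 0 lower at 12 h, 0 higher at 18 h, 0 higher and 0 lower at 24 h, 0 higher and 0 lower at 18 and 24 h against 2 to 8 h, and 0 higher and 1 lower at 0 h against unsynchronised cells. Of all 9908 genes tested it left 390 higher and 376 lower at 2 to 8 h, 464 and 373 at 12 h, and 509 higher at 18 h. It left 442 higher and 377 lower at 24 h, 384 and 259 at 18 and 24 h against 2 to 8 h, and 674 and 646 at 0 h against unsynchronised cells. Without the 4 h and 26 h arrays, chosen after seeing the data, 0 were lower at 2 to 8 h, beside 1624 of all 9908 genes tested. The F test was not run in the smaller fit, which lacks most times. The causes were not tested, beyond the fewer genes or arrays that an alternative by construction leaves.

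Arrays of the same replicate number did not deviate together (correlations of deviations between groups of -0.37 to 0.22), so the numbers were not taken to pair the arrays. With the replicate block 0 genes were lower at 2 to 8 h and 0 lower at 24 h, and the other counts stayed within 1.5 times.

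With each array left out in turn, the number of genes higher ran from 0 to 2 in the first hour, 5 to 12 at 2 to 8 h, 2 to 15 at 12 h, 1 to 12 at 18 h and 2 to 9 at 24 h. The number lower ran from 0 to 1 at 2 to 8 h, 0 to 2 at 12 h, 0 to 2 at 18 h and 0 to 1 at 24 h. At 18 and 24 h against 2 to 8 h, 2 to 4 were higher and 0 to 2 lower, and at 0 h against unsynchronised cells 0 to 2 were higher and 11 to 17 lower. The F test called 3 to 19. Counts over all genes tested also moved when an array was left out. These ranges thus show only how far the counts rest on single arrays. Only 5 groups held duplicates, so the spread of each gene rests on 5 residual degrees of freedom, and of the members 5 had a mean intensity under 100.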
